A study of Rattus norvegicus with 16 samples.

Results

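The nuclear genes for the subunits of respiratory chain complexes I to V were examined on left ventricle arrays of 16 male rats. Members were the probe sets that the platform annotation assigns to 1 gene whose symbol begins with Nduf, Uqcr, Cox4 to Cox8 or Atp5, or is one of Sdha to Sdhd, Cyc1 or Cycs. This gave 90 of the 15866 probe sets tested, on 85 genes. Of these probe sets 35 belong to complex I, 5 to complex II, 8 to complex III, 15 to complex IV and 16 to complex V. The remaining probe sets are 5 of complex I assembly factors (Ndufaf genes) and 6 that belong to no complex as a subunit, namely 3 of Atp5if1 and 1 each of Cox7a2l, Ndufa4l2 and the annotated pseudogene Cox6c-ps1. Ndufa4 was counted with complex IV. No probe set was annotated to Cycs alone, and 9 probe sets assigned to several genes, at least one of them of the chain, were not used.

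The groups were SH-DE, SH-air, WKY-DE and WKY-air, with 4 rats and 4 arrays in each. The spontaneously hypertensive (SH) rat is an inbred strain with genetic hypertension, and the Wistar Kyoto (WKY) rat is the normotensive strain it is set against. All were males of 12 to 14 weeks that breathed whole diesel exhaust (DE) with 2 mg of particles per m3, or filtered air, on 5 days a week for 4 weeks, for 6 hr a day by the sample labels and for a shorter day by the study's methods. Tissue was taken 1 day after the last exposure from the left ventricle, with parts of the septum by the study's methods. Both exposure groups of a strain share its genotype, so that a strain difference covers every locus at which SH and WKY differ. In whole ventricle RNA, fewer cells of a type and less RNA per cell cannot be told apart.

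The respiratory chain sits in the inner mitochondrial membrane. Complex I takes electrons from NADH and complex II takes them from succinate, and both pass them to ubiquinone. Complex III hands them through cytochrome c to complex IV, which reduces oxygen. The proton gradient built on the way drives complex V, the ATP synthase. The heart makes nearly all of its ATP in this way and holds much of its volume as mitochondria. Most subunits are nuclear genes, a few core subunits are encoded in mitochondrial DNA and were not examined here, and several subunits of complex IV come as a heart and muscle isoform and a second isoform found in liver and most tissues. Many nuclear subunit genes are known targets of the transcription factors NRF-1 and NRF-2 (the ETS factor GABP).

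Promoters are shown for 3 members whose calls are described further on, beside counts of these factors' motifs over the members. In RefSeq's GRCr8 assembly, 76 of the 85 genes had a promoter of 300 bases, from 250 bases before the transcription start to 50 after it. The NRF-1 motif, searched as GCGCA followed by any base and GCGC, on both strands, was in 15 of the 76 (19.7%), against 4.25% of 33469 promoters of all genes and 5.67% of 21851 promoters of protein-coding genes. The ETS motif, searched as CCGGAAGT on both strands, was in 8 (10.5%), against 3.81% of all and 4.77% of coding promoters. Their letters do not coincide, no member promoter held both, and 1 or the other was in 23 promoters (30.3%), against 7.65% and 9.88%. By complex, the NRF-1 motif was in 6 of 32 complex I promoters and 5 of 14 complex V promoters, but in 0 of 12 of complex IV. The 250 bases before the start of 3 complex I genes whose probe sets are described below follow, 5′ to 3′ on the gene's strand, with the matching letters in capitals. For Ndufs6 and Ndufv3 the match is to NRF-1, for Ndufs1 to ETS.
Ndufs6, chr1:31797150-31797399, plus strand: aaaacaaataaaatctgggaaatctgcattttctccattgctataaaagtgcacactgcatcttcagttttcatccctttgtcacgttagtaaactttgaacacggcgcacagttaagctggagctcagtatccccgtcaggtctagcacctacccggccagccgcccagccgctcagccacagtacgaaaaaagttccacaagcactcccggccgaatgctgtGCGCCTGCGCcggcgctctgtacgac
Ndufs1, chr9:72073606-72073855, minus strand: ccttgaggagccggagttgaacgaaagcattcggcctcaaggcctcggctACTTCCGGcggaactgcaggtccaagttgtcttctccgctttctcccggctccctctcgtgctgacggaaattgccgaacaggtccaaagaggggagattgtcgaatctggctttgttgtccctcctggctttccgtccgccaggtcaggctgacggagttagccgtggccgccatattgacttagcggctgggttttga
Ndufv3, chr20:9613536-9613785, plus strand: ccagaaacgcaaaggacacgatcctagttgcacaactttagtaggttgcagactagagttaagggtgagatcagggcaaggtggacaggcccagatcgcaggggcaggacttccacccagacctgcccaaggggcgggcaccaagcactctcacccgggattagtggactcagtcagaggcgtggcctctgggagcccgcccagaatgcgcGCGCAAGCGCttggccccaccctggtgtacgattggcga
The same window of Atp5if1 held neither motif. A match of letters is not a measured binding site.

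Nearly all members gave bright signals. Signals are MAS5 intensities on a linear scale, scaled by the authors to the same trimmed mean on each array, and signals of different probe sets are not comparable as RNA levels. The mean over 16 arrays ran from 20.9 (Cox6b2, the testis isoform) to 33625 (Atp5f1b, the β subunit of the ATP synthase), with a median of 10072 over the members and 194 over all probe sets. Of the 90 members, 75 were in the brightest 10% of probe sets and 4 had a mean below 62.5 (25th percentile of the table). The 4 dim ones were Cox6b2, 1 of 2 probe sets of Atp5me and 2 of 3 of Atp5if1. The 15 ventricular cardiomyocyte markers measured were all above 16.1, the 10th percentile of all values. This 10th percentile was added to each signal before log2, and log2 differences below are on that scale. The correlation of log2 signal between arrays of a group was 0.949 to 0.968, and no 2 arrays were identical. The median signal of an array was 185 to 194 in SH-DE, 173 to 197 in SH-air, 209 to 216 in WKY-DE and 178 to 192 in WKY-air, while the 99th percentile was 10008 to 11383 in SH-DE, 10579 to 11810 in SH-air, 10280 to 11132 in WKY-DE and 11772 to 13018 in WKY-air. The WKY-DE arrays thus had the highest medians, and the 99th percentiles of the WKY-DE and WKY-air arrays did not overlap. Since the members are bright, calls, medians and values that moved are also given after quantile normalization, which gives all arrays the same distribution.

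The arrays of most groups overlapped in the level of each complex. The level of a complex on an array is the mean over its probe sets of the log2 value minus the probe set's mean over 16 arrays. For complex V the levels were −0.02, −0.13, 0.07 and −0.24 in SH-DE, −0.19, −0.08, 0.14 and 0.09 in SH-air, −0.13, −0.13, −0.06 and −0.08 in WKY-DE and 0.40, 0.22, −0.07 and 0.21 in WKY-air. Of the 4 WKY-air arrays 3 were above every other array, and the fourth (replicate 3) was within the WKY-DE range. For complex I the levels were 0.11, −0.02, 0.18 and −0.19 in SH-DE, −0.06, 0.00, 0.15 and 0.08 in SH-air, −0.21, −0.13, −0.19 and −0.08 in WKY-DE and 0.25, 0.18, −0.12 and 0.03 in WKY-air. All 4 WKY-DE arrays were below the mean of the 16 arrays, and WKY-air replicate 3 lay among them. The WKY-DE arrays also lay below every SH-air array. After quantile normalization WKY-DE, at −0.16 to −0.01, and SH-air, at −0.04 to 0.08, overlapped.

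Complex III levels were 0.01, 0.10, 0.04 and −0.15 in SH-DE, 0.01, 0.10, 0.13 and 0.08 in SH-air, −0.16, −0.20, −0.03 and −0.14 in WKY-DE and 0.24, 0.08, −0.08 and −0.03 in WKY-air. The SH-air and WKY-DE arrays did not overlap. Complex IV levels were 0.07, −0.04, 0.25 and −0.31 in SH-DE, −0.07, 0.03, 0.10 and 0.02 in SH-air, −0.15, −0.15, −0.14 and −0.02 in WKY-DE and 0.29, 0.22, −0.20 and 0.10 in WKY-air. Its highest and lowest arrays in SH-DE, replicates 3 and 4, lay further apart than any 2 group means. Over all arrays as deposited, complex II had the narrowest range. It ran from −0.15 to 0.13 in SH-DE, 0.00 to 0.10 in SH-air, −0.09 to 0.08 in WKY-DE and −0.08 to 0.09 in WKY-air. Its SD was the smallest of the complexes in SH-air and WKY-air, but the largest in WKY-DE (0.074, against 0.038 to 0.072). In SH-DE the SD of complex III was smaller (0.107, against 0.115 for complex II). After quantile normalization complex III ran from −0.15 to 0.08 over all arrays, and complex II from −0.25 to 0.16. The array that was low in one of complexes I, III, IV and V was as a rule low in the others: SH-DE replicate 4 was the lowest of its group in all 4, and WKY-air replicate 1 was the highest of its group in all 4. After quantile normalization this held for SH-DE replicate 4 in complexes I, III and IV but not V, and for WKY-air replicate 1 in complexes I and III but not IV or V.

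**Figure D1:**
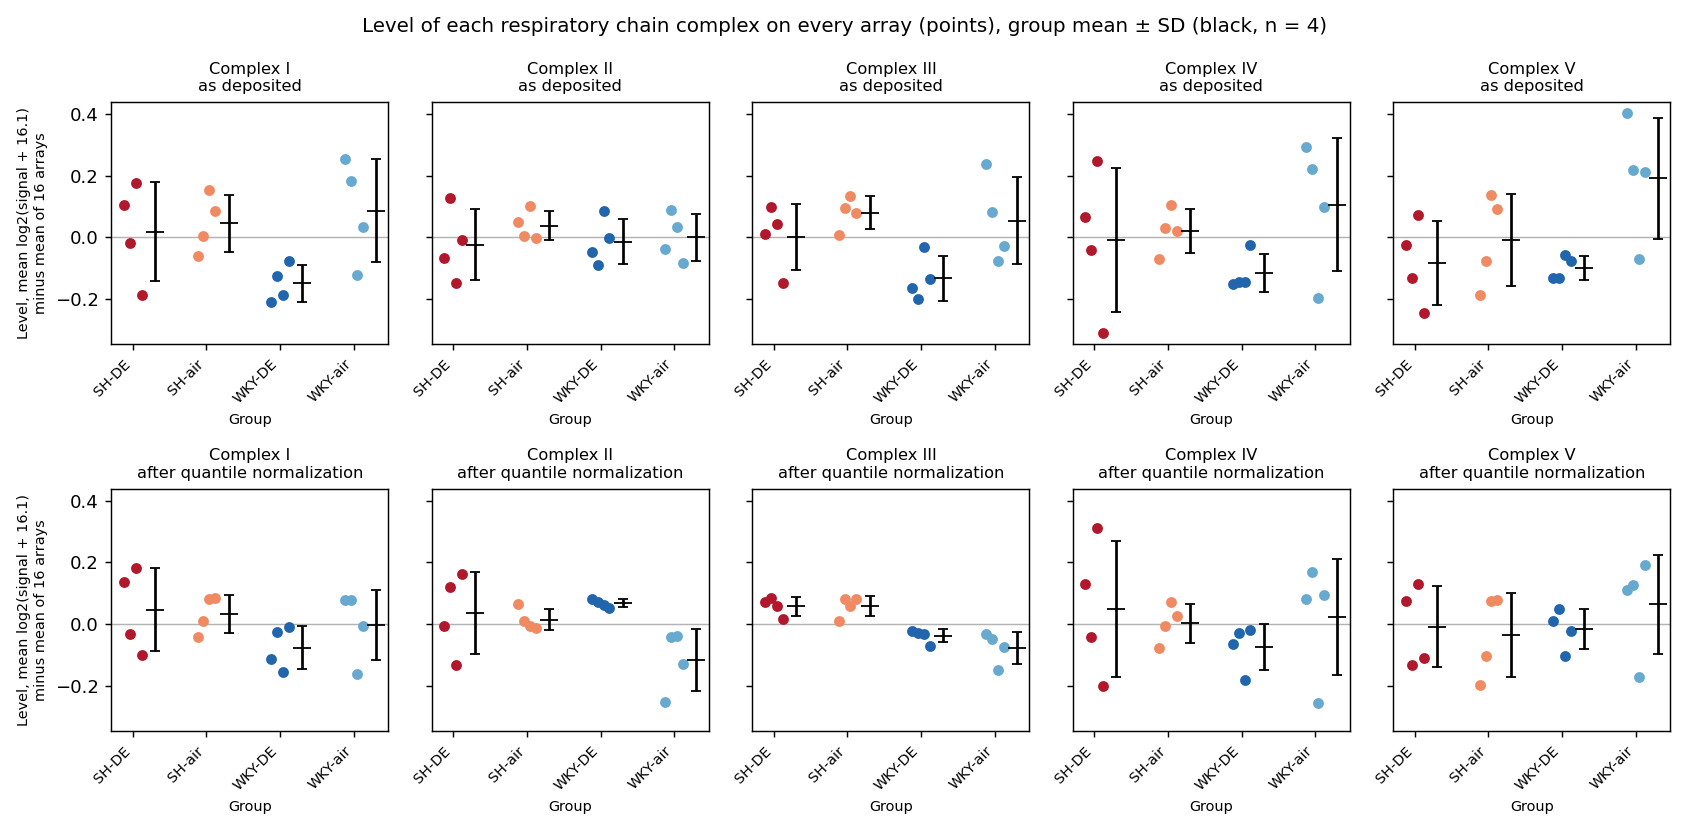
Level of each complex on every array, as mean log2(signal + 16.1) of its probe sets minus their mean over 16 arrays (vertical axis), by group (horizontal axis), with values as deposited in the upper row and after quantile normalization in the lower row. Colored points are arrays and black marks are group means ± SD (n = 4); for complex V, 3 WKY-air arrays lie at 0.21 to 0.40 in the upper row, above all arrays of the other groups.

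After quantile normalization the order changed. The mean level of complex V was −0.01 in SH-DE, −0.04 in SH-air, −0.02 in WKY-DE and 0.06 in WKY-air, and the groups overlapped. For complex III all 8 SH arrays (0.02 to 0.08 in SH-DE and 0.01 to 0.08 in SH-air) were then above all 8 WKY arrays (−0.07 to −0.02 in WKY-DE and −0.15 to −0.03 in WKY-air). For complex II the WKY-DE arrays, at 0.05 to 0.08, were then above the WKY-air arrays, at −0.25 to −0.04.

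The comparison of WKY-DE with WKY-air gave the lowest values for the chain as a whole, and these values changed with the scaling of the arrays. The median log2 difference of the 90 members was −0.24, against 0.10 for all probe sets and −0.09 for the 1512 other probe sets of the brightest 10%. Of the members 72 were below 0, against 38.1% of all probe sets. After quantile normalization the members' median was −0.04, with 53 below 0, and the median of all probe sets was 0.01. A call needed an adjusted p below 0.05 (limma, Benjamini-Hochberg over all probe sets) and an unadjusted p below 0.01. Of the members 1 was called lower and 0 higher, against 1.88% of all probe sets called, 0.511% lower and 1.37% higher. At an unadjusted p under 0.05 there were 27 members lower and 1 higher, against 6.42% of all probe sets lower and 14% higher. After quantile normalization these were 5 lower and 3 higher, with 0 called, against 8.58% of all probe sets lower. For 47 of the 90 the 95% interval lay within a 1.5-fold change in either direction.

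By complex, the median log2 differences in WKY-DE were −0.25 for complex I (10 of 35 probe sets lower and 1 higher at an unadjusted p under 0.05), 0.00 for complex II (0 of 5), −0.19 for complex III (1 of 8 lower), −0.23 for complex IV (5 of 15 lower) and −0.35 for complex V (10 of 16 lower). After quantile normalization they were −0.04 for complex I, 0.20 for complex II, 0.03 for complex III, −0.12 for complex IV and −0.15 for complex V, so that complexes II and III turned above 0. Of the 79 subunit probe sets, 72 had a higher value after quantile normalization, and the number below 0 was 48 after it and 67 before it. Complex V had the lowest median in both, while complexes I and IV changed places. Without WKY-air replicate 1, the array with the highest level of the chain, the median of the 90 was −0.17, and without WKY-air replicate 3 it was −0.28.

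**Figure D2:**
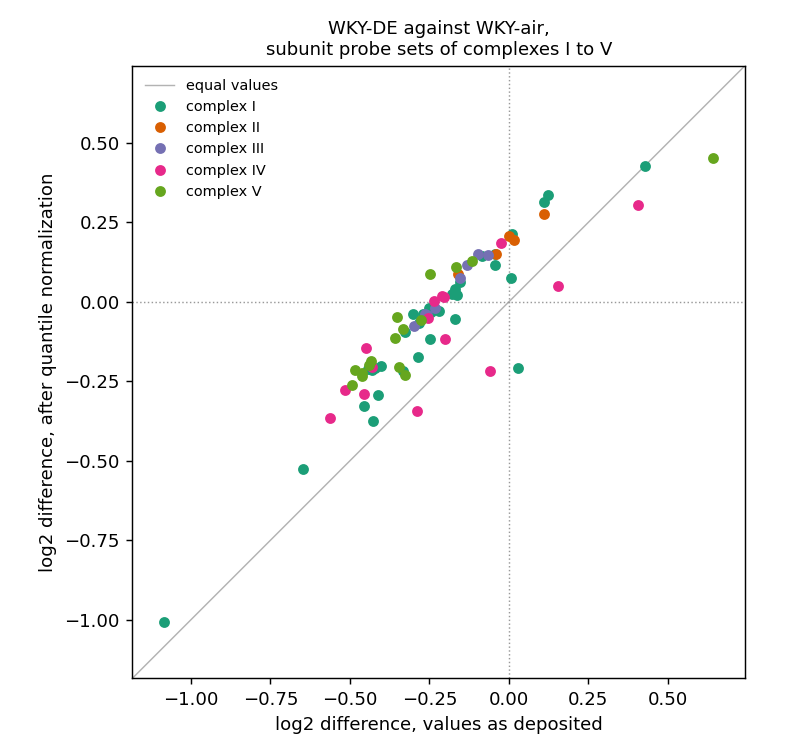
Log2 difference of WKY-DE against WKY-air for the 79 subunit probe sets of complexes I to V, with values as deposited (horizontal axis) and after quantile normalization (vertical axis), colored by complex. Most points lie above the grey line of equal values: 72 of 79 moved up, and 48 stayed or came below 0 on the vertical axis.

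Ndufs6, an accessory subunit of complex I that lies beside the iron-sulfur subunits of its matrix arm, was the member called. It had signals of 10265, 10613, 11359 and 10940 in WKY-DE, against 15246, 13578, 14590 and 14753 in WKY-air. The 2 groups did not overlap, and its values of 11425, 10934, 11333 and 9564 in SH-DE and 10873, 10522, 12040 and 12408 in SH-air were also all below WKY-air. The log2 difference of WKY-DE against WKY-air was −0.43 (SE 0.10, limma adjusted p = 0.0462). It was −0.21 after quantile normalization (limma adjusted p = 0.25), where it was not called. The call was lost without any single one of 14 of the 16 arrays (limma adjusted p up to 0.106) and was kept only without SH-DE replicate 3 or 4, with differences of −0.46 to −0.41. Its promoter is the first printed above.

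Cox5b, a nuclear subunit of cytochrome c oxidase that binds zinc, had signals of 15130, 15894, 15455 and 15367 in WKY-DE, against 26247, 22695, 18836 and 21216 in WKY-air. The groups did not overlap, the WKY-DE values were close to each other, and the log2 difference of −0.51 (SE 0.13) missed the threshold (limma adjusted p = 0.0522; 0.252 after quantile normalization). Atp5f1a, the α subunit of the catalytic F1 head of the ATP synthase, had 20281, 19965, 26722 and 25174 in WKY-DE, against 31634, 31672, 30730 and 33740 in WKY-air. The groups did not overlap there either, and the log2 difference was −0.48 (SE 0.13, limma adjusted p = 0.0672; 0.361 after quantile normalization). Both Cox5b and Atp5f1a were called when the dimmest 40% of probe sets were left out, with limma adjusted p = 0.0241 for Cox5b and 0.0328 for Atp5f1a.

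Atp5f1d and Ndufb3 had log2 differences of similar size. Atp5f1d, the δ subunit of F1, had signals of 8518 ± 347 (SD, n = 4) in WKY-DE and 11775 ± 1039 in WKY-air, and Ndufb3, an accessory subunit of the membrane arm of complex I, had 11458 ± 886 in WKY-DE and 15357 ± 1501 in WKY-air. The log2 difference was −0.46 for Atp5f1d and −0.42 for Ndufb3 (limma adjusted p = 0.0854 for Atp5f1d and 0.0718 for Ndufb3), and after quantile normalization −0.23 for Atp5f1d and −0.21 for Ndufb3. Both were also called without the dimmest 40% (limma adjusted p = 0.0434 for Atp5f1d and 0.0372 for Ndufb3). In complex III the lowest p was that of Uqcrc1, a core protein, at −0.23 (limma adjusted p = 0.227), and −0.02 after quantile normalization. In all, 13 members had WKY-DE values wholly below WKY-air, against 4.27% of all probe sets, and 0 had values wholly above, against 8.39%. The lowest value among the bright members was that of Ndufb1, an accessory subunit of the membrane arm, with 1781 ± 380 in WKY-DE and 4210 ± 1929 in WKY-air, groups that overlapped (−1.08, SE 0.49, limma adjusted p = 0.223). Ndufs4, an accessory subunit of complex I, was the 1 member higher at an unadjusted p under 0.05. It had 1065 ± 231 in WKY-DE and 774 ± 46.3 in WKY-air, a log2 difference of 0.43 that did not pass the test (SE 0.16, limma adjusted p = 0.161).

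None of the subunits that carry electrons passed the test in WKY-DE. Among the flavin and iron-sulfur subunits of complex I, Ndufv1, which binds NADH, had a log2 difference of −0.22, Ndufs7 of −0.25, Ndufs8 of −0.17, Ndufv2 of −0.04 and Ndufs1 of 0.11 in WKY-DE against WKY-air, and the core subunit Ndufs3 had −0.28. In complex II the flavoprotein Sdha had 0.11 and the iron-sulfur protein Sdhb had −0.16, and in complex III the Rieske protein Uqcrfs1 had −0.10 and cytochrome c1 (Cyc1) had −0.15. All 10 had an unadjusted p above 0.05, with limma adjusted p of 0.279 to 0.866. After quantile normalization Ndufs1 was at 0.31 and Sdha at 0.28, with unadjusted p of 0.0158 for Ndufs1 and 0.0303 for Sdha in the limma fit, and adjusted p of 0.178 for Ndufs1 and 0.233 for Sdha. These and Ndufs4 were the 3 members then higher at an unadjusted p under 0.05. Ndufv2, Sdhb, Uqcrfs1 and Cyc1 turned above 0, at 0.15, 0.09, 0.15 and 0.08.

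No complex II probe set passed a test between 2 groups. Sdha had 12117 ± 872 in SH-DE, 12372 ± 1191 in SH-air, 12535 ± 476 in WKY-DE and 11629 ± 779 in WKY-air. Sdhc, one of the membrane anchors, had 11215 ± 1762 in SH-DE, 10315 ± 1766 in SH-air, 11971 ± 1122 in WKY-DE and 11834 ± 1127 in WKY-air. The groups overlapped for both. For the iron-sulfur protein Sdhb, SH-DE, at 17338 to 20825, lay wholly below SH-air (20858 to 23354) and WKY-air (21266 to 23851). Of all probe sets 2.04% lay wholly below in the comparison with SH-air and 4.73% in that with WKY-air. The Sdhb log2 difference of −0.18 against SH-air turned above 0 after quantile normalization. Over the 5 probe sets and 5 comparisons of 2 groups the log2 differences ran from −0.21 to 0.21, with no unadjusted p under 0.05. After quantile normalization they ran from −0.11 to 0.29, and 2 had an unadjusted p under 0.05, Sdha in WKY-DE as given above and 1 of the 2 probe sets of Sdhd, the other anchor, in SH-air against WKY-air (0.29, limma adjusted p = 0.179).

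Summed marker signals of some other cell types also differed in this comparison, while few single markers were called. The summed signal of 9 atrial markers measured was 24157 to 56905 in WKY-DE and 51117 to 124247 in WKY-air, highest in WKY-air replicate 1, and was 24286 to 46624 in SH-DE and 25930 to 38267 in SH-air. Myl7, the atrial myosin light chain, had 3404 ± 4302 in WKY-DE and 12882 ± 9209 in WKY-air and was not called. The only atrial marker called was Pam, with a log2 difference of −0.73 (limma adjusted p = 0.0263). Of the 9 atrial markers, none had a mean below 16.1 over all arrays. The sum of 13 fibroblast markers was 21625 to 28380 in WKY-DE and 29330 to 37799 in WKY-air, and that of the 15 ventricular markers was 322896 to 457673 in WKY-DE and 427117 to 555378 in WKY-air. The median log2 difference of the ventricular markers was −0.28, and 0.02 after quantile normalization, while those of the atrial and fibroblast markers were then −0.63 and −0.40. Sums that did not overlap were also those of macrophage markers, at 3568 to 4587 in WKY-DE and 4841 to 5427 in WKY-air, and of smooth muscle and pericyte markers, at 11794 to 13962 in WKY-DE and 14020 to 16477 in WKY-air. Lymphocyte markers lay the other way, at 573 to 703 in WKY-DE and 416 to 500 in WKY-air. Their median log2 difference was 0.35, and 0.16 after quantile normalization. For macrophage markers it was −0.33 and then −0.28, and for smooth muscle and pericyte markers −0.28 and then −0.40. The sums of endothelial, erythroid, adipocyte, skeletal muscle and Schwann cell and epicardium markers overlapped. Called lower were 1 of 9 atrial, 2 of 13 fibroblast and 1 of 15 ventricular markers, against 0.511% of all probe sets. Of 7 macrophage and 10 smooth muscle and pericyte markers 0 were called, and 1 of 8 lymphocyte markers was called higher, against 1.37%. After quantile normalization 0 fibroblast and 0 lymphocyte markers were called. The part of these differences in the members' values was not tested.

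In SH rats DE gave no called member. In SH-DE against SH-air the median log2 difference of the 90 members was −0.06, against 0.00 for all probe sets, and 0.02 after quantile normalization. Of the members 57 were below 0, against 50.2% of all probe sets, and 0 were called by limma, against 0%. At an unadjusted p under 0.05 there was 1 higher and 1 lower, against 3.23% of all probe sets higher and 2.92% lower. For 70 of the 90 the 95% interval lay within a 1.5-fold change. The medians were −0.04 for complex I, −0.07 for complexes II, III and IV, and −0.06 for complex V. After quantile normalization they were 0.03 for complex I, 0.00 for complexes II and V, −0.03 for complex III and 0.04 for complex IV, all but that of complex III above 0. Without SH-DE replicate 4, the array with the lowest level of the chain, the median was 0.03.

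The lower one was Ndufs1, the largest iron-sulfur subunit of complex I. Its signals were 9608, 10191, 8131 and 9683 in SH-DE, against 12423, 11091, 11703 and 10700 in SH-air, without overlap (log2 difference −0.29, SE 0.11, limma adjusted p = 0.749). The higher one was Ndufaf5, an arginine hydroxylase that acts on Ndufs7 during assembly, with 359, 412, 436 and 419 in SH-DE, against 283, 234, 336 and 325 in SH-air, also without overlap (log2 difference 0.45, SE 0.17, limma adjusted p = 0.740). Atp5mc3, a subunit of the c-ring, had a log2 difference of −0.26 (limma adjusted p = 0.839) and Atp5f1b of −0.25 (limma adjusted p = 0.815). After quantile normalization these were −0.09 for Atp5mc3 and −0.03 for Atp5f1b. In all, 5 members had SH-DE values wholly below SH-air and 1 wholly above, against 2.04% of all probe sets in each direction.

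The difference between the DE effects in the 2 strains was tested as an interaction, and 0 members passed, against 0.0063% of all probe sets. The median interaction (the SH difference minus the WKY difference) was 0.19, against −0.09 for all probe sets, and 0.05 after quantile normalization. Of the members 7 were higher and 1 lower at an unadjusted p under 0.05, against 4.27% of all probe sets higher and 8.18% lower. The 1 lower was Ndufs1, with −0.40 (SE 0.16, limma adjusted p = 0.322), and Ndufs6 had 0.35 (SE 0.14, limma adjusted p = 0.342). After quantile normalization 2 members were higher and 1 lower at an unadjusted p under 0.05, with Ndufs1 at −0.56 and Ndufs6 at 0.17. Averaged over strains, 0 members passed for DE, against 0.145% of all probe sets, with a median of −0.14 that was 0.00 after quantile normalization. At an unadjusted p under 0.05, 21 members were lower and 2 higher, against 5.02% of all probe sets lower and 10.1% higher. After quantile normalization these were 1 lower and 1 higher.

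**Figure D3:**
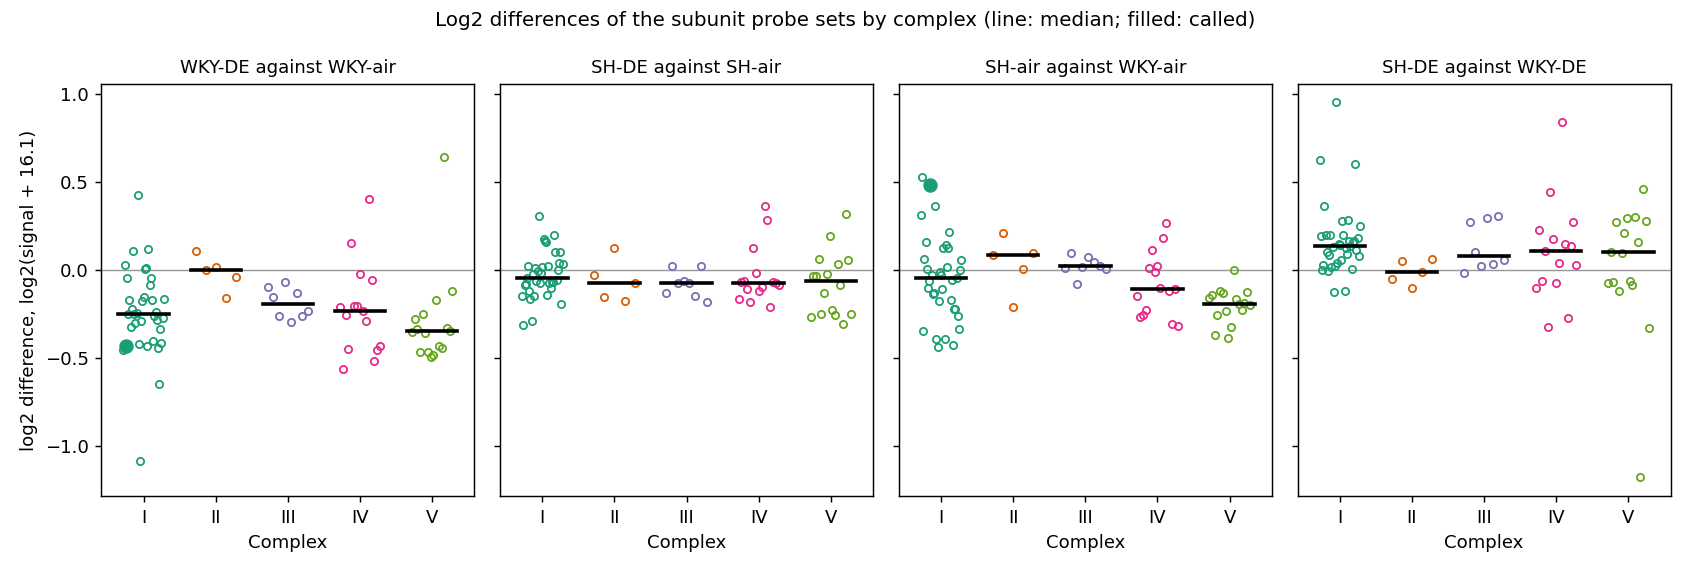
Log2 differences of the subunit probe sets (circles) by complex for 4 comparisons, with the median of each complex as a black line and called probe sets filled. In WKY-DE against WKY-air the medians run from 0.00 (complex II) to −0.35 (complex V), and in SH-DE against SH-air from −0.04 to −0.07.

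Between the strains in air, 2 members were called, 1 in each direction, against 3.15% of all probe sets called, 1.36% higher and 1.79% lower. At an unadjusted p under 0.05 there were 3 higher and 9 lower, against 9.03% of all probe sets higher and 8.52% lower, and 2 members lay wholly above and 5 wholly below WKY-air, against 5.66% of all probe sets in each direction. In SH-air against WKY-air the median log2 difference of the members was −0.06, against 0.02 for all probe sets, and 0.03 after quantile normalization. At an unadjusted p under 0.05 there were then 5 members higher and 5 lower. Ndufs1 was higher in SH-air, at the 4 signals given above, against 8489, 7619, 9438 and 7348 in WKY-air. All SH-air arrays were above all arrays of the other groups, and WKY-DE had 8639, 8928, 8844 and 8922. Its log2 difference was 0.49 (SE 0.11, limma adjusted p = 0.0286), and 0.57 after quantile normalization (limma adjusted p = 0.0176).

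Atp5if1, the inhibitor that stops the ATP synthase from running backward when the proton gradient collapses, was lower in SH-air. Its bright probe set had 981, 1247, 933 and 1108 in SH-air, against 1928, 1937, 1393 and 2087 in WKY-air, without overlap (log2 difference −0.77, SE 0.18, limma adjusted p = 0.0300; −0.75 after quantile normalization, limma adjusted p = 0.0338). SH-DE had 1406, 1337, 1823 and 972, and WKY-DE had 1753, 1808, 1563 and 1757. The other 2 probe sets of the gene were dim. Their group means were 28.7 and 9.80 in SH-DE, 32.1 and 27.6 in SH-air, 38.4 and 46.4 in WKY-DE and 73.9 and 24.6 in WKY-air, and their differences in air, −1.02 and 0.32, were of opposite sign and not called. The Ndufs1 call was lost without each of the 4 SH-air arrays and without WKY-air replicates 1, 2 and 4 (limma adjusted p up to 0.0866), and the Atp5if1 call without SH-air replicates 1, 3 and 4 and WKY-air replicates 1, 2 and 4 (limma adjusted p up to 0.0894). Both directions held in all of these.

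**Figure D4:**
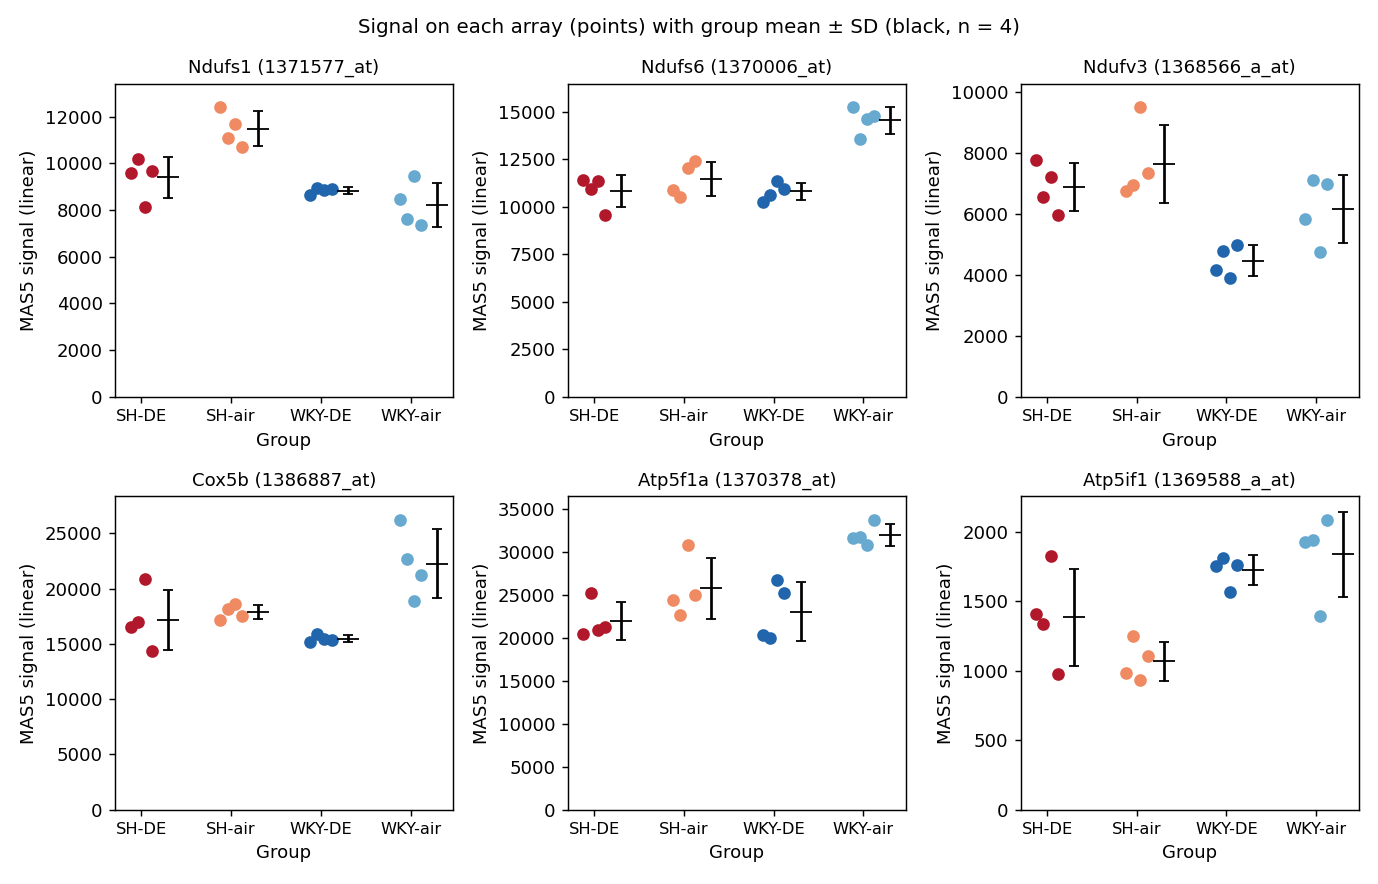
MAS5 signal (vertical axis, linear, from 0) on each of 16 arrays (colored points) with the group mean ± SD (black, n = 4) for 6 probe sets, by group (horizontal axis). Ndufs1 is highest on the 4 SH-air arrays (10700 to 12423), Ndufs6 on the 4 WKY-air arrays (13578 to 15246), and Atp5if1 is at 933 to 1247 in SH-air against 1393 to 2087 in WKY-air.

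By complex, 15 of 16 complex V probe sets were below 0 in SH-air against WKY-air, with a median of −0.19 (−0.09 after quantile normalization), and 2 of them were lower at an unadjusted p under 0.05, against 8.52% of all probe sets. In complex III, 7 of 8 were above 0, with a median of 0.02 (0.14 after quantile normalization) and 0 at an unadjusted p under 0.05. The medians were −0.05 for complex I, 0.09 for complex II and −0.10 for complex IV, and that of complex I was 0.05 after quantile normalization. Without WKY-air replicate 1 the median was −0.09 for complex V and 0.04 for complex I, and without WKY-air replicate 3 it was −0.25 for complex V and −0.12 for complex I. The atrial markers were also lower in SH-air, with 6 of 9 called, and 9 of 13 fibroblast markers were called lower, against 1.79% of all probe sets called lower. Of the 15 ventricular markers 1 was called lower. Among 9 endothelial, 10 smooth muscle and pericyte and 7 macrophage markers 0 were called. The part of the atrial and fibroblast markers in the differences of the members was not tested.

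In SH-DE against WKY-DE, 0 members were called, against 0.813% of all probe sets, and the median was 0.10, against −0.09 for all probe sets (0.06 after quantile normalization). Of the members 8 were higher and 2 lower at an unadjusted p under 0.05, against 4.53% of all probe sets higher and 8.74% lower, and 7 lay wholly above and 2 wholly below WKY-DE, against 3.09% and 5.71% of all probe sets. The lowest p was that of Ndufv3, an accessory subunit of the NADH-binding module. Its bright probe set had 7784, 6574, 7218 and 5979 in SH-DE, against 4158, 4778, 3916 and 4998 in WKY-DE, without overlap (log2 difference 0.62, SE 0.16, limma adjusted p = 0.0879). In SH-air it had 6760, 6963, 9525 and 7366, and in WKY-air 5828, 7115, 4757 and 6999. Cyc1 had 17882 ± 1515 in SH-DE and 14760 ± 697 in WKY-DE, without overlap (log2 difference 0.27, limma adjusted p = 0.288).

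SH-DE against WKY-air, which differ in strain and exposure, had 2 members called lower and 0 higher, against 1.94% of all probe sets called, 0.889% lower and 1.05% higher. They were Ndufs6, with −0.43 (limma adjusted p = 0.0455), and Atp5f1a, with −0.54 (limma adjusted p = 0.0485). Both lost the call after quantile normalization, at −0.26 for Ndufs6 and −0.21 for Atp5f1a, and when single arrays were left out (15 of 16 for Ndufs6 and 14 of 16 for Atp5f1a). At an unadjusted p under 0.05 there were 4 members higher and 14 lower, against 9.13% of all probe sets higher and 8.09% lower. After quantile normalization there were 7 higher and 4 lower. The members' median was −0.13, against 0.02 for all probe sets, and 0.03 after quantile normalization. As deposited, 3 members lay wholly above and 11 wholly below WKY-air, against 5.74% and 4.73% of all probe sets. This comparison, SH-air against WKY-air and WKY-DE against WKY-air share the WKY-air arrays.

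Averaged over exposures, SH had 2 members called against WKY, with 4.07% of all probe sets called. Ndufv3 was higher in SH, with a log2 difference of 0.47 (SE 0.11, limma adjusted p = 0.0270), and Atp5if1 was lower, with −0.55 (SE 0.13, limma adjusted p = 0.0209). After quantile normalization both were called, Ndufv3 at 0.46 (limma adjusted p = 0.0180) and Atp5if1 at −0.57 (limma adjusted p = 0.0181). The second, dim probe set of Ndufv3, at 106 ± 33.2 in SH-DE, 133 ± 28.3 in SH-air, 88.9 ± 19.1 in WKY-DE and 87.8 ± 23.3 in WKY-air, had a log2 difference of 0.36 in the same direction (limma adjusted p = 0.248). The Atp5if1 call was kept without any single one of the 16 arrays, and the Ndufv3 call was lost without WKY-DE replicate 1 or 3, SH-air replicate 3, or SH-DE replicate 1 or 2 (limma adjusted p up to 0.0624). Ndufs1 was at 0.29 (limma adjusted p = 0.0556). Of the members 46 were above 0, with a median of 0.01, and 10 were higher and 4 lower at an unadjusted p under 0.05, against 7.34% of all probe sets higher and 10.3% lower. Cox7a1, the heart isoform of subunit 7a, had 912 ± 229 in SH-DE, 690 ± 92.0 in SH-air, 506 ± 145 in WKY-DE and 640 ± 235 in WKY-air, and its strain difference of 0.51 did not pass the test (SE 0.20, limma adjusted p = 0.191).

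The isoform pairs of complex IV gave no called difference in any comparison. Cox6a2, the heart isoform, had 26570 ± 3424 in SH-DE, 28547 ± 2330 in SH-air, 24602 ± 3178 in WKY-DE and 33556 ± 4296 in WKY-air, while Cox6a1, the liver isoform, had 4205 ± 893 in SH-DE, 3823 ± 661 in SH-air, 3059 ± 461 in WKY-DE and 3518 ± 463 in WKY-air. The log2 ratio of Cox6a2 to Cox6a1, centered on its mean over the arrays, was −0.43 to −0.12 in SH-DE, −0.28 to 0.09 in SH-air, −0.42 to 0.36 in WKY-DE and 0.21 to 0.37 in WKY-air. As deposited, WKY-air lay above both SH groups, whereas WKY-DE overlapped every other group. The ratio was not computed after quantile normalization. The log2 differences of SH-air against WKY-air were then −0.10 for Cox6a2 and 0.11 for Cox6a1. Cox8b, the heart isoform of subunit 8, had 15549 ± 4665 in SH-DE, 15788 ± 1096 in SH-air, 12865 ± 899 in WKY-DE and 19422 ± 4836 in WKY-air, and Cox8a had 6619 ± 1283 in SH-DE, 6952 ± 1291 in SH-air, 5454 ± 946 in WKY-DE and 7572 ± 1769 in WKY-air. Their log2 differences in WKY-DE against WKY-air, −0.56 for Cox8b and −0.45 for Cox8a (−0.36 for Cox8b and −0.29 for Cox8a after quantile normalization), missed the threshold (limma adjusted p = 0.141 for Cox8b and 0.236 for Cox8a). The same ratio of Cox8b to Cox8a overlapped in all 4 groups, from −0.34 to 0.40. Cox4i2, the isoform known from lung, had 278 ± 119 in SH-DE, 306 ± 85.7 in SH-air, 333 ± 55.5 in WKY-DE and 299 ± 65.9 in WKY-air, and Cox4i1 had log2 differences of −0.16 in SH-DE against SH-air and −0.21 in WKY-DE against WKY-air, both 0.02 after quantile normalization. Cox7a2 was not among the members.

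Genes that build or feed the chain were counted from 4 lists beside the members. Of 35 assembly factors measured, 6 were higher and 0 lower in SH averaged over exposures, against 1.77% of all probe sets called higher and 2.3% called lower, with the same 6 called after quantile normalization. The median log2 difference of the 35 was 0.18, against −0.03 for all probe sets. Cox15, which makes heme A for complex IV, had 988 ± 189 in SH-DE, 1097 ± 69.3 in SH-air, 683 ± 69.7 in WKY-DE and 530 ± 99.6 in WKY-air, a strain difference of 0.78 (SE 0.12, limma adjusted p = 0.00149). Cox14, which helps the translation and assembly of Cox1 in complex IV, had 2467 ± 205 in SH-DE, 2284 ± 194 in SH-air, 1495 ± 384 in WKY-DE and 1460 ± 192 in WKY-air (0.70, SE 0.12, limma adjusted p = 0.00325). Atpaf2, which assembles the F1 head, was at 0.70 (SE 0.15, limma adjusted p = 0.0122), and Sdhaf3, Pet100 and Cox19 were the others. Nubpl, which delivers iron-sulfur clusters to complex I, was called higher in WKY-DE (1 of 35, against 1.37% of all probe sets). It had 130 ± 47.0 in WKY-DE and 35.7 ± 22.8 in WKY-air (log2 difference 1.52, SE 0.31, limma adjusted p = 0.0308). This call was lost after quantile normalization. Nubpl was also called higher than in WKY-air in SH-air (1.28, limma adjusted p = 0.0341) and in SH-DE (1.65, limma adjusted p = 0.0141). Those 2 calls were kept after quantile normalization. Its WKY-air mean was below 62.5, the 25th percentile of the table.

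Of 15 regulators of mitochondrial biogenesis measured, 0 were called in SH-air or in WKY-DE against WKY-air, and only Sirt3, a mitochondrial deacetylase, was called in SH-DE against WKY-air, at 722 ± 5.69 in SH-DE and 545 ± 10.5 in WKY-air (0.40, SE 0.09, limma adjusted p = 0.0361). It was not called there after quantile normalization, and Esrra, an orphan nuclear receptor, was then called in SH averaged over exposures. Of 25 carriers and enzymes that bring electrons to the chain, Aifm1, apoptosis-inducing factor, and Slc25a13, an aspartate-glutamate carrier, were higher in SH-air against WKY-air (2 of 25, against 1.36% of all probe sets called higher), and Coq3, which methylates precursors of ubiquinone, was higher in WKY-DE (1 of 25, against 1.37%), at 1764 ± 110 against 1234 ± 85.6 in WKY-air (0.51, SE 0.12, limma adjusted p = 0.0399). In SH averaged over exposures Aifm1 and Pdss2, which makes the side chain of ubiquinone, were called higher (2 of 25, against 1.77%). All these calls were also made after quantile normalization. Of 15 genes of pyruvate oxidation and the tricarboxylic acid cycle, 1 was called higher in SH-air and in WKY-DE, each against WKY-air (against 1.36% of all probe sets in SH-air and 1.37% in WKY-DE), namely Pdhx, the E3-binding protein of pyruvate dehydrogenase, at 2677 ± 223 in SH-DE, 2358 ± 70.7 in SH-air, 2180 ± 268 in WKY-DE and 1508 ± 217 in WKY-air. Its log2 difference was 0.65 in SH-air (SE 0.13, limma adjusted p = 0.0136) and 0.53 in WKY-DE (SE 0.13, limma adjusted p = 0.0469), and the call in WKY-DE was lost after quantile normalization. It was also called in SH-DE against WKY-air (0.83) and in SH averaged over exposures (0.47).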

How the data were processed

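RNA of the left ventricle of 16 rats was hybridised to 1 Affymetrix rat expression array each. The authors deposited MAS5 signals (Microarray Suite 5.0 at its default setting, per the study's methods), intensities on a linear scale that had been scaled per array to a trimmed mean of about 500 (trim of 2%), while their own gene lists were made by another summary of the probes. Scan dates are not given in the sources used here, and probe sequences were not compared with strain variants. Of 15923 probe sets, 57 controls were left out. Genes were taken from the platform annotation, which can be old: 12783 probe sets had 1 gene, 312 had several and 2771 were not listed.

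Signals were tested as log2(signal + 16.1), the offset being the 10th percentile of all values, in 1 limma model (3.58.1, R 4.3.3) of 4 group means with Benjamini-Hochberg adjustment over 15866 probe sets, and 8 comparisons were made. Calls needed an adjusted p below 0.05 and an unadjusted p below 0.01. The median SE of a pairwise log2 difference was 0.15 for members and 0.21 for all probe sets; the number of arrays limits the precision. Code was tested on simulated data. Named by rule were the called members of each comparison, the 2 of lowest p in each complex for 3 comparisons, the electron-carrying subunits, the isoform pairs, all probe sets of a named gene and up to 3 called genes a list and comparison. Other genes behind a small count (Ndufs4, Ndufaf5, Esrra and 3 assembly factors), and Ndufb1 for its low value, were named after their values were seen. The members and lists were chosen with earlier results of these data known. Alternatives were another offset, quantile normalization, a filter on dim probe sets, an intensity trend, array weights, the compared groups alone, a replicate block, 1 probe set a gene, a stricter threshold and each array left out.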

Additional observations from a re-analysis of the deposited data

Results flagged for a closer look

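In 13 of 168 groups of 4 arrays tested, 1 array lay far from the other 3 by Dixon's criterion, which chance gives in about 1 in 20 groups. Of these 4 were in the dim probe sets of Atp5if1. The one with a mean of 43.3 over all arrays had 99.8 in WKY-DE replicate 2 with the other 3 at 16.6 to 19.2, and 95.2 in SH-air replicate 1 with the others at 5.47 to 14.2. The one with a mean of 27.1 had 68.0 in SH-air replicate 2 with the others at 10.3 to 17.4, and 82.6 in WKY-air replicate 1 with the others at 2.89 to 8.32.

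The bright probe sets so marked were spread over arrays and complexes. In SH-DE replicate 2, Atp5f1a had 25232 (others 20464 to 21249) and Uqcrfs1 had 19326 (others 16308 to 16657). In SH-air replicate 3, Ndufv2 had 20033 (others 17536 to 17939). In WKY-DE replicate 3, Uqcrfs1 had 19641 (others 16364 to 16881) and Atp5mc3 had 28280 (others 20302 to 21282), and in WKY-DE replicate 4 Ndufs3 had 12262 (others 8051 to 8714) and the complex IV level was −0.0243 (others −0.153 to −0.144). In WKY-air, Sdhb had 23851 in replicate 2 (others 21266 to 21597). Cox8a, the ubiquitous isoform of subunit 8, was the 1 low value, with 4948 in WKY-air replicate 3 (others 8135 to 8766).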

How the results depend on the processing

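Directions of the medians of the members held under most settings, of which most left out a single array, and the calls differed in this. Of the 16 fits without 1 array, the Atp5if1 call for strain averaged over exposures was kept in 16. The Ndufs1 call in SH-air against WKY-air was kept in 9, and the Ndufs6 call in WKY-DE against WKY-air in 2. Under quantile normalization the median of all members turned above 0 in SH-air and SH-DE against WKY-air. It also turned in SH-DE against SH-air and in DE averaged over strains. At an adjusted p under 0.01, 0 members were called in SH-air, WKY-DE or SH-DE against WKY-air or in strain averaged over exposures, and with the compared groups alone 0 in the 3 comparisons with WKY-air. With an offset of 1, 1 was called in SH-DE against WKY-air, with one at the 25th percentile 4 in WKY-DE, and with 1 probe set a gene 2 in WKY-DE. Without the dimmest 40%, 4 were called in SH-air, 5 in WKY-DE and 4 in SH-DE, each against WKY-air, and 1 in SH-DE against WKY-DE. With an intensity trend, these were 5, 7, 5 and 1, with 4 for strain and 2 for DE averaged over strains. Array weights gave 4 in WKY-DE and 1 in SH-DE against WKY-DE. The cause was not tested.

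Quantile normalization gave 0 calls in WKY-DE and in SH-DE against WKY-air. Its medians in SH-air were 0.0274 for all members, 0.17 for complex II and 0.14 for complex III. In SH-DE against SH-air the median was 0.0206 for all members. In WKY-DE they were −0.0386 for all members and for complex I, 0.196 for II, 0.0283 for III and −0.15 for V. In SH-DE against WKY-air they were 0.0312 for all, 0.185 for II, 0.12 for III, −0.0189 for IV and −0.0215 for V. The interaction was 0.0487 for all, −0.16 for II and −0.0123 for III, and DE averaged over strains was 0.00205 for all, 0.0702 for II, 0.0202 for III and −0.0285 for V. Signs turned for Cox4i1 (0.0191), Ndufv2 (0.151), Uqcrfs1 (0.149), Cyc1 (0.0762) and Sdhb (0.0891) in WKY-DE, and for Cox4i1 (0.01998) and Sdhb (0.00226) in SH-DE against SH-air.

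Leaving out 1 array gave 0 to 2 calls in SH-air, WKY-DE and SH-DE against WKY-air and 1 to 3 for strain. Without WKY-air replicate 1 there were 0 in all 3 comparisons with WKY-air. The uncalled Ndufv2 in WKY-DE ranged from −0.113 to 0.0146, with the sign turned without WKY-air replicate 1 or WKY-DE replicate 1 or 2, and the dimmest Atp5if1 probe set in SH-air from −0.053 to 0.871, turned without SH-air replicate 2. The median in SH-DE against SH-air turned without SH-DE replicate 4.

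With a replicate block, 0 members were called in SH-air, WKY-DE or SH-DE against WKY-air or for strain. Deviations of same-numbered arrays correlated at −0.096 to 0.053 over 24 pairs, and those of other arrays of different groups at −0.091 to 0.124 over 72. Same-numbered arrays were thus not more alike than others, which does not show whether they were handled together.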
